A study of Mus musculus with 8 samples.

Results

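The genes of cholesterol synthesis, its control by sterol regulatory element binding proteins (SREBPs) and fatty acid synthesis were compared between cultured mouse neurons lacking Nuak1 (KO, 4 libraries) and wild type neurons (WT, 4 libraries). The genes were a list of 38 symbols with these roles, and 37 of them could be paired with one of the 32726 gene identifiers in the count table. Hmgcs1 could not be paired and was not analysed here. They comprise 6 enzymes of the mevalonate route, 12 enzymes from squalene to cholesterol, 5 genes of SREBP control, 5 genes of sterol transport and turnover, and 9 enzymes of fatty acid synthesis and desaturation.

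The KO carries a constitutive deletion of Nuak1, a serine/threonine kinase related to AMPK, so that every cell of the embryo lacked it, and such animals die at birth. Neurons were taken from embryos on a C57Bl/6JRj background and kept for 5 days in serum-free medium, and poly-A RNA was sequenced. The labels name the tissue as cortex or hippocampus without saying which applies to which library, whereas the study's methods describe cortical neurons. RNA was sequenced from 4 animals per condition according to the methods, and the labels do not tie single libraries to animals. The methods also state that sex was determined by PCR for RNA sequencing, but the sample information used here does not give it. KO3 and WT4 held Y-linked reads, and a fit without these libraries is given in the last section. The labels also give a lane, A for KO1, KO4, WT1 and WT3 and B for the others, and a strain label whose meaning is not explained. KO1, KO2 and KO3 share the label BJ, which no WT library carries, WT1 and WT3 have labels of their own, and KO4, WT2 and WT4 share the label BK. For most libraries genotype and strain label therefore cannot be told apart.

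Cholesterol is built from acetyl-CoA by way of mevalonate, isoprenoids, squalene and lanosterol, in a chain of enzymes bound largely to the endoplasmic reticulum. The SREBP precursors sit in the same membrane together with Scap, and when membrane sterol is low Scap carries them to the Golgi, where proteases release a fragment that enters the nucleus. Insig proteins hold Scap back when sterol is plentiful. SREBP2, the product of Srebf2, acts mainly on sterol genes, and SREBP1, the product of Srebf1, mainly on fatty acid genes. The brain makes its own cholesterol because lipoproteins of the blood do not cross into it, and neurons dispose of the excess through the hydroxylase Cyp46a1 and through export carriers such as Abca1.

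The promoter sequences of 5 of these genes are shown because SREBPs act there, on a sterol regulatory element (SRE) that is often accompanied by a CCAAT box. Each is the run of 250 bases before the RefSeq transcription start in GRCm38.p6, written 5′ to 3′ on the strand of the gene, with capitals marking matches to the SRE core TCACNCCA and to CCAAT on either strand (CCAAT appears as ATTGG on the opposite strand). The windows of the other 4 genes end where the RefSeq gene begins, whereas that of Fasn precedes a start inside the RefSeq span of the gene (chr11:120805958-120825166) and so lies within the gene.
Srebf2, chr15:82147019-82147268, plus strand: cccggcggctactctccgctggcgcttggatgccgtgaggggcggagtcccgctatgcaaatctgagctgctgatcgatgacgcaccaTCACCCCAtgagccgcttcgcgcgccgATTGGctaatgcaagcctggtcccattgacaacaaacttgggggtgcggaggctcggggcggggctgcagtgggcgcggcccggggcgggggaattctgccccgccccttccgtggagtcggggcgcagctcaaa
Msmo1, chr8:64733579-64733828, minus strand: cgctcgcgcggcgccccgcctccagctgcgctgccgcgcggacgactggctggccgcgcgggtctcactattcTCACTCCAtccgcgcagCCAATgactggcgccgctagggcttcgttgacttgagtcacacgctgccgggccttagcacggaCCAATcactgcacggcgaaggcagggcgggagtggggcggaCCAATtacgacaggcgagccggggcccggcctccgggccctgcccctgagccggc
Insig1, chr5:28071162-28071411, plus strand: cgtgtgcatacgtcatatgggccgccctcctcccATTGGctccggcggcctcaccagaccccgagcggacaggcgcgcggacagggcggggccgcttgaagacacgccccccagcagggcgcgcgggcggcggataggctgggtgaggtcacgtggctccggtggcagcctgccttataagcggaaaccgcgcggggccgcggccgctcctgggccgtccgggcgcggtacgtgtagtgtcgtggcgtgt
Cyp51, chr5:4104698-4104947, minus strand: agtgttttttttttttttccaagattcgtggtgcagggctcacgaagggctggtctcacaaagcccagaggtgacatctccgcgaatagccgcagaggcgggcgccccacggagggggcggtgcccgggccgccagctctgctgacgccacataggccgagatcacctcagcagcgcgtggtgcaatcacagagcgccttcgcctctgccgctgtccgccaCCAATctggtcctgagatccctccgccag
Fasn, chr11:120824548-120824797, minus strand: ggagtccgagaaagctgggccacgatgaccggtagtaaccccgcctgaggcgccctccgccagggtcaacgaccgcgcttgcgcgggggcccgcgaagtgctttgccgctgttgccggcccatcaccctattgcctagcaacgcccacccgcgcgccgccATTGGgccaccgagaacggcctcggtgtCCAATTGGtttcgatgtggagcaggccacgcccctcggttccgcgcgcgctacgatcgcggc

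In Srebf2 the SRE core began 162 bases before the start and in Msmo1 177 bases before it, and both were on the strand of the gene. Msmo1 had CCAAT at 160, 96 and 55 bases before the start. RefSeq windows were found for 29 of the 37 measured genes. The SRE core was present in 2 of the 29, Srebf2 and Msmo1, and in 4.2% of all 27025 genes with a window. CCAAT was present in 22 of 29 against 37.5% of all genes, the GC box GGGCGG, which Sp1 recognizes, in 25 of 29 against 35.4%, and the E-box CACGTG in 6 of 29 against 6.86%. All were searched on both strands. In the printed promoters no SRE core overlapped a CCAAT match, and the CCAAT matches at 62 and 59 bases before the start of Fasn overlapped each other. These counts describe letters in a window of fixed length and say nothing about occupancy.

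Nuak1 itself lay between 1.96 and 2.72 CPM in the KO libraries against 51.6 to 82.6 CPM in the WT libraries, with a log2 fold change of −4.90 (SE 0.13, edgeR adjusted p = 1.38e-07). CPM are counts of a gene per 1000000 counts of the library, and totals ranged from 31247078 to 67155004. KO1 and WT1 stood apart from the other libraries. Their log2 CPM, minus the mean of the other libraries of their genotype, was correlated across the 37 genes with transcript GC content, with r of −0.84 for KO1 and −0.892 for WT1, and across 13636 tested genes with r of −0.744 and −0.732. The points of each correlation share a library, and genes are not independent replicates. The 10 members with a GC content of at least 55% had a median log2 difference of −1.20 in KO1 and −1.14 in WT1, and the 17 members under 50% had medians of 0.035 and 0.37. The model held 1 surrogate variable estimated from all genes, which took values of −0.565 in KO1 and −0.617 in WT1 and between 0.0453 and 0.377 in the other libraries.

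**Figure D1:**
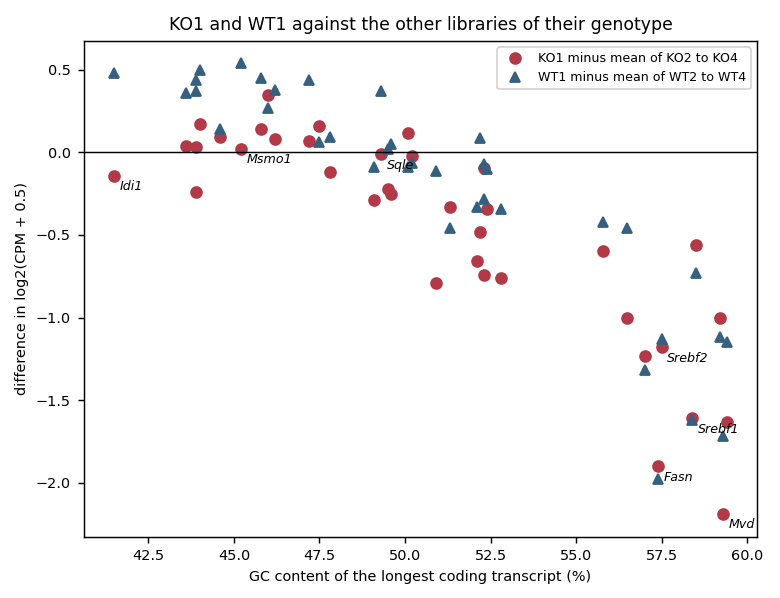
Log2 CPM of KO1 (against the mean of KO2 to KO4) and of WT1 (against the mean of WT2 to WT4), vertical axis, by transcript GC content in percent, horizontal axis, with a circle for KO1 and a triangle for WT1 for each of the 37 genes. Both sets of points fall from left to right, with r of −0.84 and −0.892, and the 10 genes with at least 55% GC lie below 0 in both libraries.

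Of the 37 genes, 34 had a lower fitted level in KO and 3 a higher one, where 46.6% of the 16272 genes tested were lower, and the median log2 fold change was −0.18, against 0.014 over all genes tested. No member passed an adjusted p of 0.05 in edgeR, where 0.0492% of all genes did. At an unadjusted p under 0.05 there were 14 members, against 10.5% of all genes. DESeq2 gave 4 members (Fasn, Cyp51, Fdps and Acaca, all lower in KO) an adjusted p under 0.05, against 0.848% of all genes lower in KO. A rule taken from the study, an absolute log2 fold change above 0.25 with an unadjusted p under 0.05, was passed by 13 members, all lower in KO, which is 35.1% of the members against 3.51% of all genes tested, and by no member higher in KO, where the share of all genes was 2.16%. The members and rules were chosen with earlier results of these data known, so the shares above describe the list and do not test it. The 13 were Fdps, Sqle, Cyp51, Msmo1, Hsd17b7, Ebp, Sc5d, Insig1, Srebf2, Acaca, Fasn, Elovl6 and Scd2. The lowest count behind any of these values was 93 reads, for Idi1 in 1 library.

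**Figure D2:**
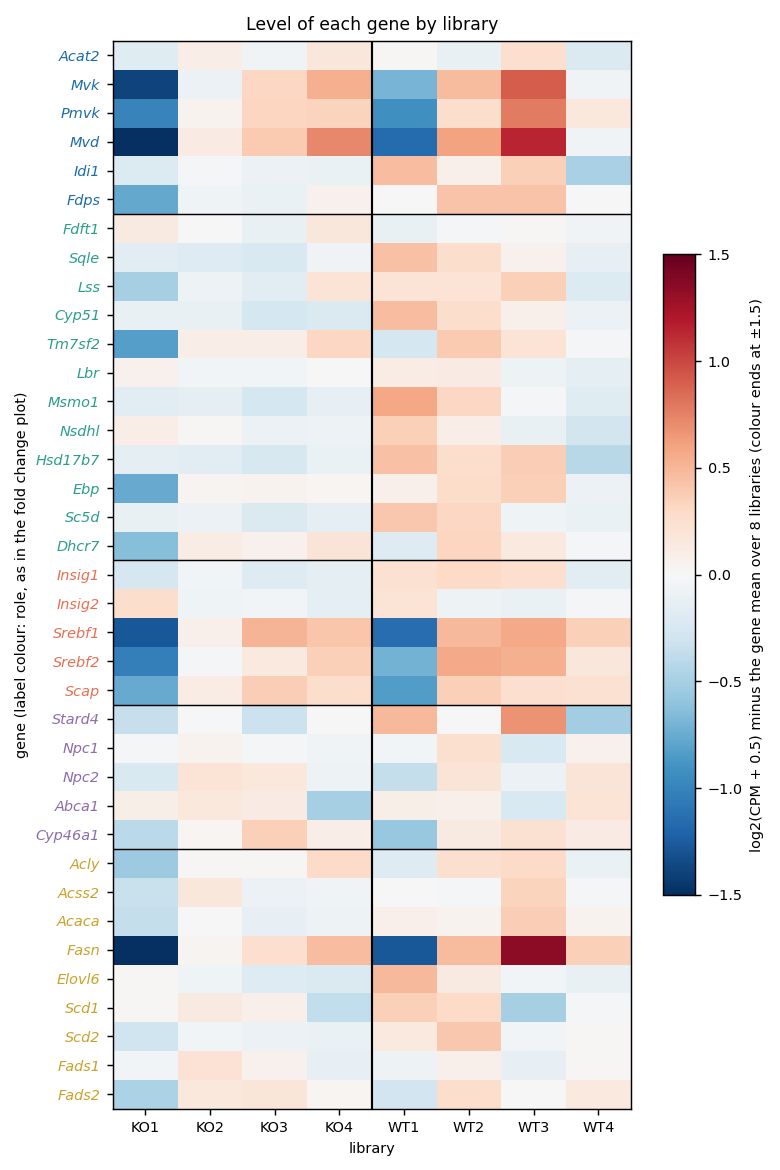
Level of each of the 37 genes (rows, grouped by role) in each of the 8 libraries (columns) as log2(CPM + 0.5) minus the mean of that gene over the 8 libraries, with colours ending at 1.5 in either direction. Mvk, Pmvk, Mvd, Srebf1, Srebf2 and Fasn are low in both KO1 and WT1, and Sqle, Cyp51, Msmo1, Hsd17b7 and Insig1 are above their mean in WT1 and WT2 and below it in WT4.

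The enzymes of the mevalonate route turn acetyl-CoA into the isoprenoid farnesyl diphosphate, and 1 of the 6 measured passed the rule. That enzyme, Fdps, joins isopentenyl units into farnesyl diphosphate. Fdps was measured at 18.6, 30.6, 30 and 33.5 CPM in KO1 to KO4 and at 32.3, 43.5, 43.3 and 32.1 CPM in WT1 to WT4. KO4 alone reached into the range of the WT libraries, and KO1 was the lowest of the 8. Its log2 fold change was −0.47 (SE 0.12, unadjusted p = 0.00382, edgeR adjusted p = 0.314), and the exact permutation test on the libraries gave p = 0.0857, where 0.0286 is the smallest this design allows. DESeq2 gave an adjusted p of 0.0395. A large part of the Fdps transcript, 96.4%, matched other places of the mouse genome (NCBIM37) at 95% identity or more over at least 50 bases, so its count is uncertain.

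Pmvk, the phosphomevalonate kinase, had an unadjusted p of 0.0404 with a log2 fold change of −0.15 (SE 0.063), short of the fold threshold. It was measured at 24.8, 52.1, 62.6 and 63 CPM in the KO libraries and at 26.3, 60.3, 86.6 and 56.1 CPM in the WT libraries. The lowest values of either genotype were in KO1 and WT1, and the groups overlapped over most of their range (exact permutation p = 0.743). The remaining 4 genes had an unadjusted p above 0.05. They are Mvk, the mevalonate kinase, at −0.32 (SE 0.15), Idi1, the isomerase of isopentenyl diphosphate, at −0.32 (SE 0.22), Mvd, the decarboxylase, at −0.26 (SE 0.17), and Acat2, the cytosolic thiolase, at −0.019 (SE 0.11). Idi1 was the least abundant member at 2.45 to 5.18 CPM. The median of the 6 log2 fold changes was −0.29. In Idi1 86.6% and in Acat2 52.1% of the transcript matched elsewhere in the genome.

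The later steps of the route make squalene, close it into lanosterol and trim lanosterol to cholesterol, and 6 of their 12 genes passed the rule with a median log2 fold change over the 12 of −0.32. Of the 18 enzymes of both stretches together, 17 had a fitted level lower in KO and 7 passed the rule. Their CPM summed to 2314, 2603, 2479 and 2769 in KO1 to KO4 and to 3296, 3233, 3049 and 2496 in WT1 to WT4. By these sums WT1, WT2 and WT3 were above every KO library, whereas WT4 lay within the range of the KO libraries. With the genes weighted equally, log2 CPM minus the gene's mean over the libraries was averaged over the 18 enzymes. By this measure WT1 (0.013) lay below KO4 (0.11), and WT2 (0.25) and WT3 (0.29) stayed above every KO library. WT4 (−0.13) lay below KO2 (−0.027), KO3 (−0.035) and KO4, and above KO1 (−0.47). Among the 18, only Fdft1, squalene synthase, had a higher fitted level in KO, at 0.061 (SE 0.079), and 56.3% of its transcript matched elsewhere.

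Cyp51, which removes a methyl group from lanosterol, was measured at 429, 429, 386 and 401 CPM in the KO libraries and at 638, 556, 491 and 436 CPM in the WT libraries. Every KO library was below every WT library (exact permutation p = 0.0286, the smallest possible), a separation seen in the same direction in 0.86% of all genes tested and in 3 of the 37 members. The KO mean was 411 ± 21.6 CPM against a WT mean of 530.1 ± 87.1 CPM (SD, n = 4 libraries), and the log2 fold change was −0.41 (SE 0.1, edgeR adjusted p = 0.272 and DESeq2 adjusted p = 0.0202). Across 21 other models and library selections its log2 fold change stayed between −0.49 and −0.32.

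Sqle, the squalene epoxidase and a rate-limiting enzyme of the later steps, was measured at 393, 387, 376 and 425 CPM in KO and at 599, 531, 460.1 and 405 CPM in WT. WT4 lay between KO1 and KO4, and the other WT libraries were above every KO library. The log2 fold change was −0.37 (SE 0.12, edgeR adjusted p = 0.365, exact permutation p = 0.0571). Msmo1, which oxidizes the methyl groups of sterol intermediates and carries the SRE core printed above, was at 277, 279, 257 and 283 CPM in KO and at 461, 383, 306 and 271 CPM in WT. Again WT4 was the only WT library within the KO range, and the log2 fold change was −0.40 (SE 0.14, edgeR adjusted p = 0.377, exact permutation p = 0.114).

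Hsd17b7, a sterol ketoreductase, was measured at 74.1, 72.3, 68.9 and 76.1 CPM in KO and at 111, 98, 106 and 61.3 CPM in WT. The lowest of the 8 libraries was WT4, while the other WT libraries were the 3 highest. Its log2 fold change was −0.41 (SE 0.17, edgeR adjusted p = 0.475, exact permutation p = 0.143). Ebp, the sterol isomerase, was at 9.14, 16.2, 16.4 and 16 CPM in KO and at 16.6, 19.2, 20.3 and 14.8 CPM in WT. KO1 was far below the other KO libraries for Ebp, WT4 lay below KO2 to KO4, and the log2 fold change was −0.35 (SE 0.14, edgeR adjusted p = 0.461, exact permutation p = 0.2). Sc5d, the lathosterol desaturase, was at 228, 232, 212 and 224 CPM in KO and at 328, 306, 236 and 231 CPM in WT. WT4 fell inside the narrow KO range for Sc5d, WT3 lay just above it, and the log2 fold change was −0.33 (SE 0.11, edgeR adjusted p = 0.377, exact permutation p = 0.0571).

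Among the sterol enzymes that did not pass the rule, Lss, which closes squalene epoxide into lanosterol, had a log2 fold change of −0.31 (SE 0.16), Tm7sf2 and Lbr, both sterol reductases acting on the same bond, had −0.18 (SE 0.14) and −0.056, Nsdhl had −0.087 and Dhcr7, which makes the last double bond reduction, had −0.16 (SE 0.11). Between the genes that passed and these, no test of a difference was made.

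**Figure D3:**
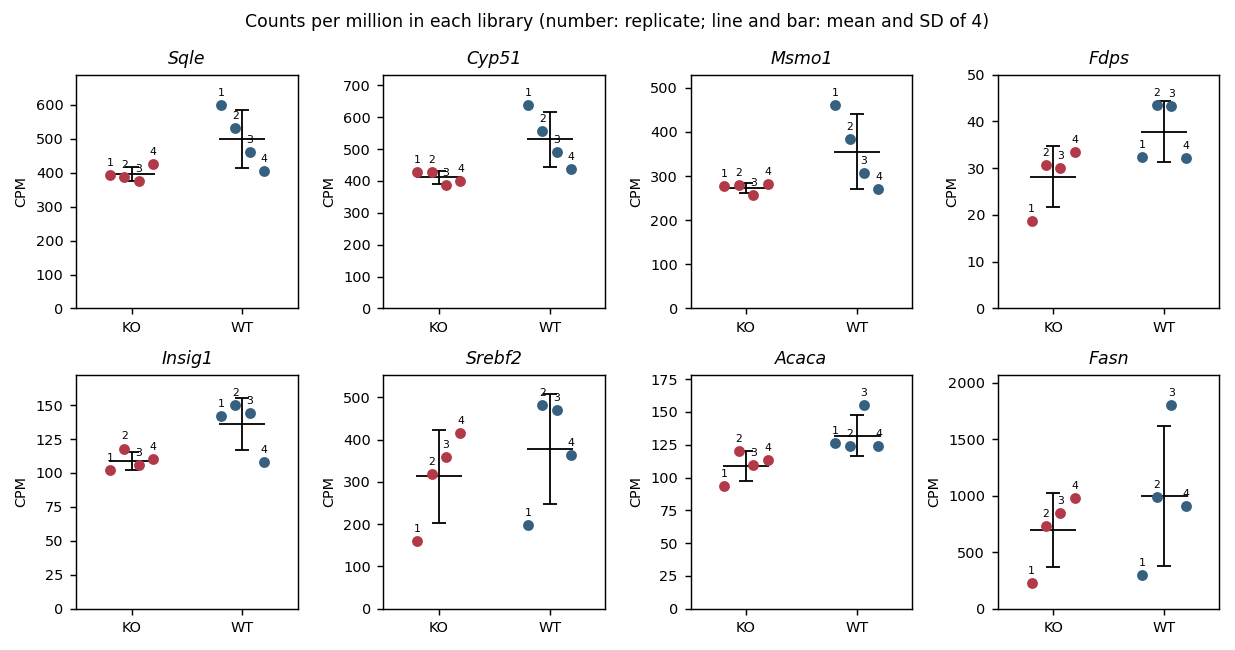
CPM (vertical axes, starting at 0) of 8 genes that passed the rule in KO and WT (horizontal axes), with a point for each library numbered by replicate and a line and bar at the mean and SD (n = 4 per genotype). For Cyp51 and Acaca all KO points lie below the WT points, and for Sqle, Msmo1 and Insig1 WT4 is the WT point that falls within the KO range.

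Of the 5 control genes, Insig1 and Srebf2 passed the rule. Insig1, which retains Scap in the endoplasmic reticulum and is itself an SREBP target, was measured at 102, 118, 106 and 110.2 CPM in KO and at 142, 149.8, 144 and 108 CPM in WT. WT1 to WT3 lay above every KO library and WT4 among them. Its log2 fold change was −0.36 (SE 0.11, edgeR adjusted p = 0.365, exact permutation p = 0.0857). Of its transcript 79.4% matched elsewhere in the genome, and its span also holds the transcript Gm35223, so reads could not be told apart if the counting did not use strand.

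Srebf2, the transcription factor gene with the SRE core in its own promoter, was at 159.8, 318, 359 and 415 CPM in KO and at 198, 481, 469 and 364 CPM in WT. The groups overlapped (exact permutation p = 0.457), since KO1 and WT1 were both far below the other libraries, and WT4 lay between KO3 and KO4. With the surrogate variable in the model, the log2 fold change was −0.29 (SE 0.099, edgeR adjusted p = 0.377). Srebf1, its relative for the fatty acid genes, was at 19.8, 51, 69.2 and 65 CPM in KO and at 21.7, 68.4, 72.1 and 62.4 CPM in WT. KO1 and WT1 were again the 2 lowest, and the log2 fold change of −0.13 (SE 0.095, edgeR adjusted p = 0.643) was within the spread of the libraries.

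Scap, the escort of the SREBPs, was at 60, 109.6, 131 and 122 CPM in KO and at 56.3, 129.6, 121 and 119 CPM in WT, with a log2 fold change of −0.015 (SE 0.09). The levels of the 2 genotypes interleaved. Insig2, the other retention protein, was at 34.8, 27.6, 28 and 26.2 CPM in KO and at 33.3, 27.3, 27 and 28.3 CPM in WT. Its libraries likewise interleaved, with a log2 fold change of −0.04 (SE 0.062, exact permutation p = 0.886). The median over the 5 control genes was −0.13.

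None of the 5 genes of sterol transport and turnover passed the rule, and none had an unadjusted p under 0.05. Stard4, a carrier that moves sterol to the endoplasmic reticulum and is also SREBP-regulated, was at 72, 91.5, 73 and 92 CPM in KO and at 129, 92.3, 147 and 63.9 CPM in WT. The SD of its WT libraries was 37.3 CPM, close to the 35.9 CPM of the more abundant Abca1. Its log2 fold change was −0.44 (SE 0.25, edgeR unadjusted p = 0.117). The exporter Abca1 was at 300.1, 315, 309 and 199.7 CPM in KO and at 301, 299, 242 and 327 CPM in WT. Here KO4 was far below the other KO libraries, and the log2 fold change was −0.10 (SE 0.14).

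Npc1 and Npc2 pass cholesterol out of the lysosome. Npc1 was at 93, 98.3, 93.6 and 91.4 CPM in KO and at 92, 112, 80.7 and 98.8 CPM in WT, and Npc2 was at 100.4, 136, 132 and 112 CPM in KO and at 92, 135, 111 and 135 CPM in WT. Their log2 fold changes were −0.069 and −0.0059, and the genotypes overlapped in both. Cyp46a1, which hydroxylates cholesterol for removal from neurons, was at 50.9, 68.6, 86.1 and 72.1 CPM in KO and at 45.2, 73.9, 78.7 and 73.6 CPM in WT, with a log2 fold change of 0.026. The median over these 5 genes was −0.069.

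Fatty acid synthesis starts from cytosolic acetyl-CoA, which Acaca carboxylates and Fasn builds into palmitate, and of the 9 genes measured 4 passed the rule, all lower in KO, with a median log2 fold change of −0.18. Summed over the 9 genes the level was 4821, 6349, 6284 and 6325 CPM in KO1 to KO4 and 6288, 8004, 7342 and 6529.8 CPM in WT1 to WT4. By these sums WT2 to WT4 lay above every KO library, and WT1 lay just below KO2 and KO4. Scd2 alone averaged 3288 of 5945 CPM in KO and 3960.3 of 7041 CPM in WT. With the genes weighted equally, as for the sterol enzymes, WT4 (0.038) lay below KO2 (0.069). WT1 (−0.083) then lay below KO2, KO3 (0.011) and KO4 (−0.018), and WT2 (0.21) and WT3 (0.18) stayed above every KO library.

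Acaca was measured at 93.4, 120.0, 109.5 and 113 CPM in KO and at 126, 124, 155 and 124 CPM in WT, so that every KO library was below every WT library (exact permutation p = 0.0286). The log2 fold change was −0.31 (SE 0.079, edgeR adjusted p = 0.287 and DESeq2 adjusted p = 0.0498). Of the Acaca transcript 85% matched elsewhere at the identity given above. Fasn was at 227, 731, 849 and 979.6 CPM in KO and at 296, 989, 1802 and 909.9 CPM in WT. The values ran over a wide range, with KO1 and WT1 lowest and WT3 far above the rest, and the exact permutation p on the library values was 0.371. With the surrogate variable in the model the log2 fold change was −0.43 (SE 0.093, edgeR adjusted p = 0.225 and DESeq2 adjusted p = 0.0025), the lowest adjusted p of the 37 genes in both.

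Elovl6, which lengthens palmitate, was at 255, 241, 220.1 and 218 CPM in KO and at 355, 277, 245 and 234 CPM in WT. WT1 and WT2 lay above every KO library, and WT3 and WT4 fell among them. Its log2 fold change was −0.29 (SE 0.086, edgeR adjusted p = 0.358, exact permutation p = 0.143). Of its transcript 39.6% matched elsewhere, at 65193 places, so its count is uncertain. Scd2, the stearoyl-CoA desaturase of brain and the most abundant member, was at 2922, 3488, 3393 and 3349.6 CPM in KO and at 3978, 4740.3, 3495 and 3628 CPM in WT. No KO library reached the lowest WT library, though KO2 and WT3 differed by few CPM, and the log2 fold change was −0.31 (SE 0.13, edgeR adjusted p = 0.444, exact permutation p = 0.0286).

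The other 5 fatty acid genes did not pass the rule. Scd1, another stearoyl-CoA desaturase, had a log2 fold change of −0.13, Acly, which makes acetyl-CoA from citrate, −0.14 (SE 0.11), and Acss2, which makes it from acetate, −0.18 (SE 0.096). Fads1 and Fads2, which desaturate polyunsaturated fatty acids, had 0.024 and −0.089.

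**Figure D4:**
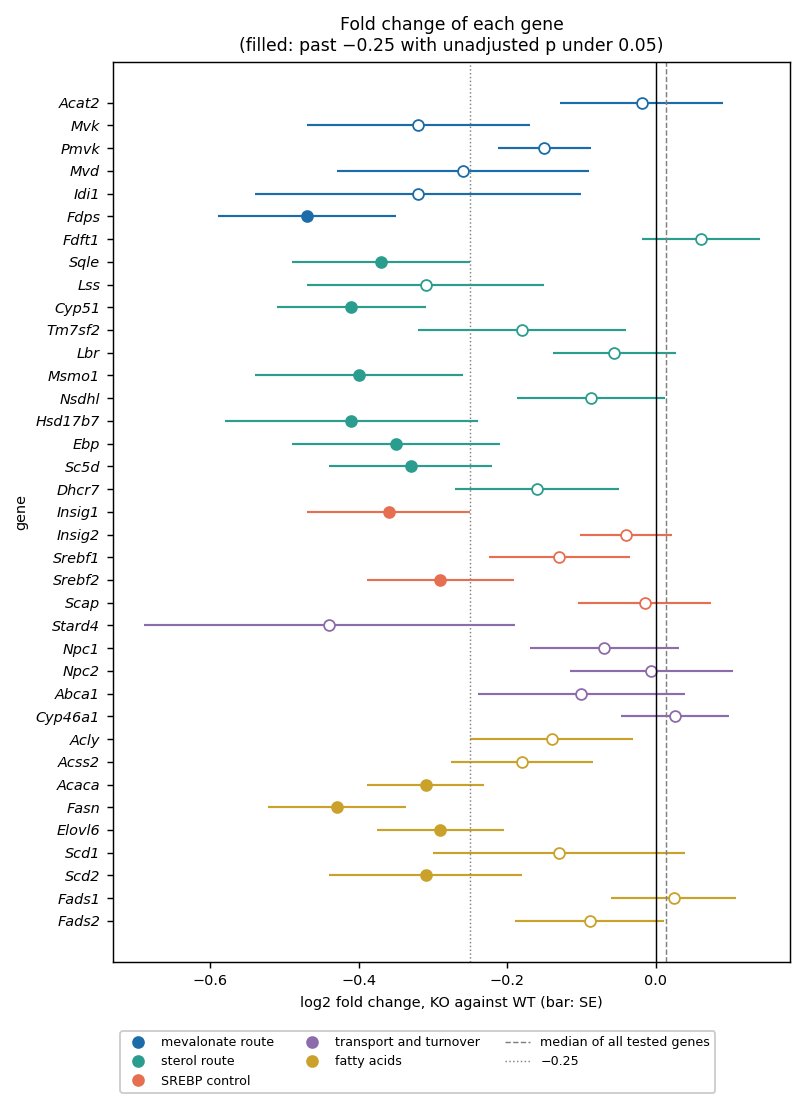
Log2 fold change of KO against WT (horizontal axis, edgeR with 1 surrogate variable) for each of the 37 genes, with bars of 1 SE, filled where the gene passed the rule. The 13 filled points lie between −0.47 and −0.29, and the points for transport genes other than Stard4 lie close to the dashed line at the median of all tested genes, 0.014.

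Which WT libraries carried the difference was counted over the 13 genes that passed the rule. WT2 was above all 4 KO libraries for 13 of the 13 genes, WT3 for 12, WT1 for 10 and WT4 for 3. The 13 genes were chosen with these libraries, so the counts describe them. Over the 21 other models and library selections, the rule was passed by Cyp51 in 19, Fdps in 17, Sqle, Insig1 and Acaca in 16 each, Fasn in 15, Msmo1 in 14, Sc5d and Scd2 in 12 each, Srebf2 and Elovl6 in 11 each, Ebp in 8 and Hsd17b7 in 7. Without the surrogate variable 8 of the 13 passed, against 1.59% of all genes lower in KO, and Ebp, Elovl6, Fasn, Hsd17b7 and Srebf2 did not. Fasn then had a log2 fold change of −0.55 (edgeR unadjusted p = 0.331) and Srebf2 −0.31 (edgeR unadjusted p = 0.376). Leaving out WT1 left 3 of the 37 members past the rule, Cyp51, Fasn and Fdps (8.11% of the members, against 2.16% of all genes lower in KO in that fit), and moved the median of the 18 sterol and mevalonate enzymes from −0.32 to −0.08. Without WT4, 18 members passed, against 4.39% of all genes lower in KO, and the median was −0.42. Without KO1, 5 members passed, against 2.81% of all genes, and without WT2 there were 6, against 3.18%.

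Within lane A alone the median of the 18 enzymes was −0.40, but with 2 libraries of each genotype only 1 member, Stard4, passed the rule, against 0.462% of all genes lower in KO. Within lane B the median was −0.17, and 5 members passed, Cyp51, Fasn, Fdps, Sqle and Srebf2, against 4.53%. Without KO1 and WT1, the libraries that stood apart, the median was −0.21, and Acaca, Cyp51 and Fdps passed, again 8.11% of the members against 2.03%. When the strain label was added as a term, genotype was estimated from KO4 against WT2 and WT4 alone. In that fit the median of the 18 enzymes was −0.0077, 25 of the 37 members were lower in KO, against 50.4% of all genes, and 2 passed the rule, Abca1 and Scd1, against 1.43% of all genes lower in KO. Fasn was at 0.028, Cyp51 at −0.33, Sc5d at −0.28 and Scd2 at −0.34 in that fit.

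**Figure D5:**
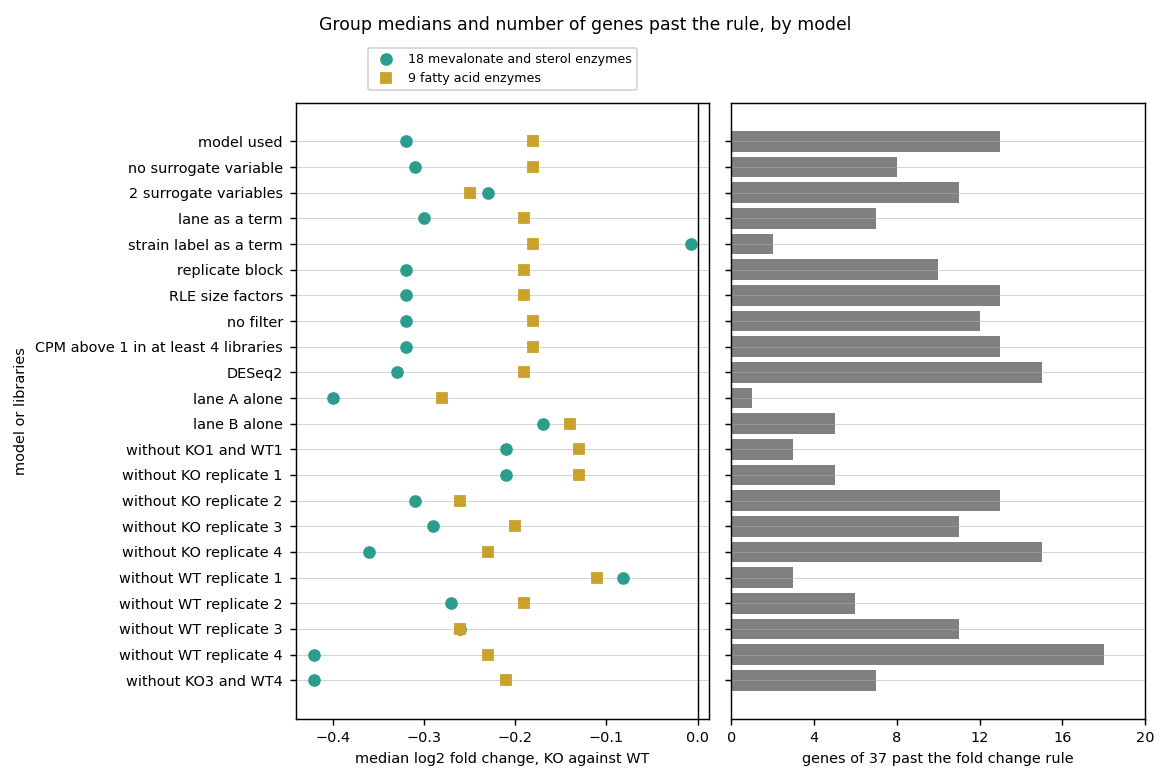
Median log2 fold change of the 18 mevalonate and sterol enzymes and of the 9 fatty acid enzymes (left, horizontal axis) and the number of the 37 genes past the rule (right, horizontal axis) under each model or selection of libraries (rows). The sterol median lies between −0.42 and −0.0077 and the number of genes past the rule between 1 and 18.

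Other genes of the same pathways were examined from lists of 30 sterol and 28 fatty acid genes not among the 37. Of the sterol genes 26 were tested, with a median log2 fold change of −0.071. The rule was passed by 2 of them, both lower in KO, which is 7.69% against 3.51% of all genes tested. These were the lipoprotein receptors Vldlr and Lrp1, while Lrp8, another lipoprotein receptor of the list, was at −0.046. Vldlr, which takes up apolipoprotein E and also binds reelin, was at 276, 244, 221 and 217 CPM in KO and at 342, 262, 278 and 284 CPM in WT, so that KO1 alone overlapped the WT libraries, and its log2 fold change was −0.33 (unadjusted p = 0.000147, edgeR adjusted p = 0.121). Lrp1, a large lipoprotein receptor, was at 236, 537, 683 and 689 CPM in KO and at 264, 842, 856 and 706 CPM in WT, with a log2 fold change of −0.29. KO1 and WT1 were lowest for Lrp1 and the genotypes overlapped.

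All 28 fatty acid genes were tested, with a median log2 fold change of −0.044. The rule was passed by 4, all lower in KO, which is 14.3% against 3.51% of all genes tested. Every KO library was below every WT library for 2 of the 28, where this held for 0.86% of all genes tested. Hsd17b12, a ketoreductase of fatty acid elongation, was at 94.1, 103, 91.7 and 93.4 CPM in KO and at 119, 108, 125 and 121 CPM in WT, without overlap, and had a log2 fold change of −0.34 (edgeR adjusted p = 0.136). Fads6, named as a desaturase, lay between 2.44 and 3.27 CPM in KO against 3.32 to 4.47 CPM in WT, without overlap, and had −0.40. The acyl-CoA synthetases Acsl3 and Acsl4, which activate long-chain fatty acids, had −0.33 and −0.58. Acsl4 was at 200.2, 147, 133 and 131 CPM in KO and at 302, 199.6, 241 and 137 CPM in WT, and WT2 and WT4 lay inside the KO range.

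Cell type composition was read from marker genes, since sterol genes differ in level between neurons and glia, and in such bulk cultures fewer cells of a type and less RNA per cell cannot be told apart. Neuronal markers were high in every library. A list of 12 that mixes pan-neuronal genes (Map2, Syt1, Snap25 and Rbfox3) with genes of glutamatergic neurons summed to between 4931 and 5796 CPM in KO libraries against 4942 to 6197 CPM in WT libraries, of which Map2 was the most abundant. The 12 astrocyte markers summed to between 1044 and 1935 CPM in KO libraries against 1084 to 1642 CPM in WT libraries, led by Slc1a3, and 9 of the 11 tested were higher in KO with 0 past the rule and a median log2 fold change of 0.074. Gfap, the astrocyte intermediate filament, had the largest of these log2 fold changes and was at 73.8, 112, 235 and 7.12 CPM in KO1 to KO4 and at 32.9, 12.5, 9.9 and 56.7 CPM in WT1 to WT4 (1.95, SE 1.12, edgeR adjusted p = 0.587). KO1 to KO3 were above every WT library and KO4 was the lowest of the 8. By the astrocyte sum, KO4 and WT3 were the lowest libraries of their genotypes. The 12 microglia markers summed to between 20.9 and 84.3 CPM in KO libraries against 26 to 48.6 CPM in WT libraries, 9 of the 10 tested were higher in KO (median log2 fold change 1.21), and 0 passed the rule, with Tmem119 at or near 0 in every library. The 10 progenitor markers summed to between 974 and 1322 CPM in KO libraries against 893 to 1201 CPM in WT libraries. Of these 6 were higher and 4 lower in KO, with a median log2 fold change of 0.015. Only Top2a, a gene of dividing cells, passed the rule, at 0.48, where 2.16% of all genes tested passed it higher in KO. The 8 oligodendrocyte lineage markers summed to between 509 and 611 CPM in KO libraries against 486 to 592 CPM in WT libraries. In the list of 12 neuronal markers 7 were lower and 5 higher in KO, with a median log2 fold change of −0.043. Only Slc17a7, a glutamate transporter of synaptic vesicles, passed the rule, at −0.32, where 3.51% of all genes tested passed it lower in KO. Fibroblast and endothelial markers summed to 13 to 22.3 and 6.92 to 36 CPM, and GABAergic markers to 185 to 323 and 165 to 259 CPM. The part of these differences in the sterol and fatty acid values was not tested.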

How the data were processed

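Raw read counts per Ensembl gene were deposited by the authors for 8 poly-A libraries. Per the submitters' processing notes and the study's methods, reads were trimmed with Cutadapt 1.10, ribosomal reads were discarded, the remainder were aligned to mm10 with STAR 2.5.3a, and reads were counted with HTSeq 0.6.1p1 in union mode. Reads that fit several places or several genes are left out by such counting, which lowers genes with near-identical copies. Read layout is given differently in the labels and the methods, and use of strand in counting is not given in the sources used here.

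Identifiers were paired with symbols for 23260 of 32726 genes, and 20891 had a GRCm38 position, through RefSeq tables. Total counts had a median of 39224504. The genotype term was tested with edgeR 4.0.16 under R 4.3.3 (filterByExpr, TMM, robust quasi-likelihood F test, Benjamini-Hochberg threshold 0.05), with 1 surrogate variable from svaseq (sva 3.50.0). DESeq2 1.42.0 was an alternative. Standard errors are the absolute log2 fold change over the square root of F. Exact permutation tests were two-sided, on CPM, over the 70 ways to assign 4 of 8 libraries to KO.

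Values per library are given for members with an unadjusted p under 0.05, the control and transport genes, and Sqle, Fasn and Acaca. Other pathway genes are named where they passed the fold change rule. The members, lists and rules were chosen with earlier results of these data known. Alternatives were other normalizations, filters, terms for lane and strain label, subsets of libraries and leaving out each library. Fits with a lane, strain label or replicate term, and fits on 1 lane or without a pair of libraries, held no surrogate variable, and it was estimated again where 1 library was left out. The result for 1 marker gene is not reported here.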

Additional observations from a re-analysis of the deposited data

Results flagged for a closer look

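In each genotype, the highest and the lowest library of each of the 37 genes and of Nuak1 were compared with the rest by Dixon's ratio for 4 samples at its 95% critical value. This marked 6 of 76 groups, where 1 in 20 would give 3.8. Ebp in KO1 was at 9.14 CPM, below the other KO libraries. Scap and Cyp46a1 in WT1 were at 56.3 and 45.2 CPM, below the other WT libraries. KO1 and WT1 are the libraries in which GC-rich genes were low, and the part of this in these 3 values was not tested. Abca1 in KO4 was at 199.7 CPM, below the other KO libraries. In WT3, Acss2 was at 56.7 CPM and Acaca at 155 CPM, both above the other WT libraries.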

How the results depend on the processing

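With 4 libraries of each genotype, differences of the size seen for most members could not be separated from the spread between libraries, and most strain labels occur in 1 genotype. Of 777 single gene values over 21 alternatives, 617 kept their direction and side of the fold change rule, 98 fell short of it, 15 came past it and 47 turned sign, and the causes were not tested. Cyp51 was lower in KO in all 21. The reference values are 8 genes past the adjusted threshold and 923 past the fold change rule among all genes, 13 members past the rule and 0 past the adjusted threshold. Without the surrogate variable these were 4, 396 and 8 (without Ebp, Elovl6, Fasn, Hsd17b7 and Srebf2, and with Cyp46a1 at −0.0022), with lane as a term 4, 452 and 7 (Cyp46a1 −0.0038), with 2 surrogate variables 17 genes passed the adjusted threshold (Acat2 0.06, Fads1 −0.02), and without a filter 49 and 1476 with 1 member, Fasn, past the adjusted threshold. DESeq2 gave 165 genes and 4 members at that threshold. In lane A alone, 0, 96 and 1 remained (Npc2 0.052, Npc1 0.071, Scap 0.036, Cyp46a1 −0.02), and in lane B alone 99, 1612 and 5 (Acat2 0.12, Idi1 0.033, Fdft1 −0.084). Without KO1 and WT1 there were 3, 555 and 3 (Acat2 0.053, Nsdhl 0.00085, Cyp46a1 −0.029), and without KO3 and WT4, a choice made after seeing the data because those libraries held Y-linked reads, 1, 229 and 7 (Cyp46a1 −0.085). With the strain label as a term there were 1, 310 and 2, the median of the 18 enzymes was −0.0077, and log2 fold changes turned sign for Mvd (0.38), Acat2 (0.32), Mvk (0.28), Stard4 (0.21), Acly (0.19), Lss (0.17), Pmvk (0.096), Tm7sf2 (0.088), Idi1 (0.053), Fasn (0.028), Dhcr7 (0.0078), Cyp46a1 (−0.047) and Fads1 (−0.18). Same-numbered libraries of the 2 genotypes correlated at 0.788, 0.00934, 0.237 and −0.011, so the numbers were not taken to pair them, and a replicate block gave 3 genes past the adjusted threshold and 10 members past the rule, against 2.99% of all genes lower in KO, with Ebp, Hsd17b7 and Srebf2 lost (edgeR unadjusted p = 0.0579, 0.0529 and 0.0535). Leaving out 1 library at a time gave 3 to 114 genes past the adjusted threshold (114 without WT3), 588 to 1389 past the rule (without WT1, without WT4), 3 to 18 members past the rule (likewise) and 0 to 1 past the adjusted threshold (1, Hsd17b7, without WT4). Signs turned within these ranges for Lbr (−0.11 to 0.017), Fads1 (−0.033 to 0.076), Abca1 (−0.18 to 0.017, higher without KO4), Npc2 (−0.087 to 0.061), Cyp46a1 (−0.031 to 0.064), Fdft1 (−0.0038 to 0.13), Acat2 (−0.097 to 0.11), Npc1 (−0.16 to 0.04), Scap (−0.081 to 0.05) and Scd1 (−0.27 to 0.024).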
